A study of Mus musculus with 24 samples.

Results

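The genes described here are 9 factors and markers of the step at which a neural progenitor commits to becoming a neuron: Neurog1, Neurog2, Neurod1, Neurod4, Atoh1, Insm1, Myt1, Hes6 and Elavl4. They were chosen by name, with earlier results of these data known, so counts of members beside a background share are descriptive. Each was read by 1 probe set with a single gene symbol. Thus 9 probe sets stand for 9 genes, out of 19938 genes and 28856 probe sets in all. The levels are log2 array values, and a level of 1 probe set cannot be set against that of another.

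Proneural factors are basic helix-loop-helix (bHLH) proteins that bind DNA at short motifs called E-boxes, as dimers with E proteins such as Tcf12, and push progenitors out of the cell cycle and towards a neuronal fate. Neurogenins and Atoh1 act at the start of this cascade, and NeuroD factors and zinc finger factors such as Insm1 and Myt1 act after them. The cascade is held back by Notch signalling, in which ligands such as Dll1 on 1 cell turn on the repressors Hes1, Hes5 and Hey2 in its neighbours, and by Id proteins, which capture E proteins. Neurog2 is best known from the dorsal cortex and the ventral midbrain, where it contributes to glutamatergic and dopaminergic neuron production.

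The cells were primary cultures from the fetal cortex or midbrain (mesencephalon) of C57Bl/6 mice at embryonic day 14, all kept in expansion medium, a medium that favours dividing neural stem cells. Culture lasted 48 h or 13 d, with oxygen at 3% or at the 21% of ambient air, which gave 8 groups of 3 arrays, 24 in all. The study asked how low oxygen changes such cells in short and long culture. No gene alteration is named in the labels, and nothing in them ties the 3 arrays of a group to different cultures or animals. The p-values therefore rest on a spread between arrays that may be technical. In what follows each change is a difference of log2 means with its standard error and n = 3 arrays per group. A gene is called higher or lower only where limma's adjusted p over 23410 named probe sets was under 0.05. These are bulk samples, in which fewer cells of a type and less RNA per cell cannot be told apart.

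The arrays had medians of 7.35 to 7.42, and within a group their Pearson correlation was 0.988 to 0.999. The labels put the 6 midbrain 13 d arrays in array run 1 and all others in run 2, so midbrain 13 d levels against other groups cross the run and carry no test. Neuron genes did not follow the labelled times in the same way in both regions. The mean of 12 neuron markers at 21% O2 was 11.83 ± 0.04 (SD, n = 3) in midbrain 48 h and 8.44 ± 0.07 in midbrain 13 d. It was 9.31 ± 0.05 in the cortex arrays labelled 48 h and 11.20 ± 0.04 in those labelled 13 d, so the order of the labelled times in cortex was opposite to that in midbrain. Whether the cortex time labels are right was not tested, and the times are given as labelled. If they were exchanged, each comparison of midbrain with cortex and each comparison between cortex times would change its meaning, while the oxygen comparison within a set would change only its time. Tbr1, a marker of early cortical projection neurons, lay between 11.17 and 11.50 in the cortex arrays labelled 13 d and between 6.35 and 7.03 in those labelled 48 h, against 6.02 to 6.22 in midbrain.

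A pair of cortex arrays labelled 48 h stood apart. Their oxygen comparison is given with and without them, and for other comparisons that use them the calls that change without them are named. Replicate 1 at 3% O2 had En2, a midbrain and hindbrain factor, at 9.13 against 7.26 and 7.36 in replicates 2 and 3. It had Emx2, a dorsal forebrain factor, at 6.86 against 9.07 and 8.87. In both genes it lay within the range of the midbrain 13 d arrays, which was 8.82 to 9.36 for En2 and 6.29 to 6.95 for Emx2. Emx2 was high in the midbrain 48 h arrays too, at 9.13 to 9.45. Replicate 1 at 21% O2 had Id4 at 8.07 against 9.99 and 9.70, and the oligodendrocyte precursor gene Gpr17 at 9.22 against 11.54 and 11.28.

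**Figure D1:**
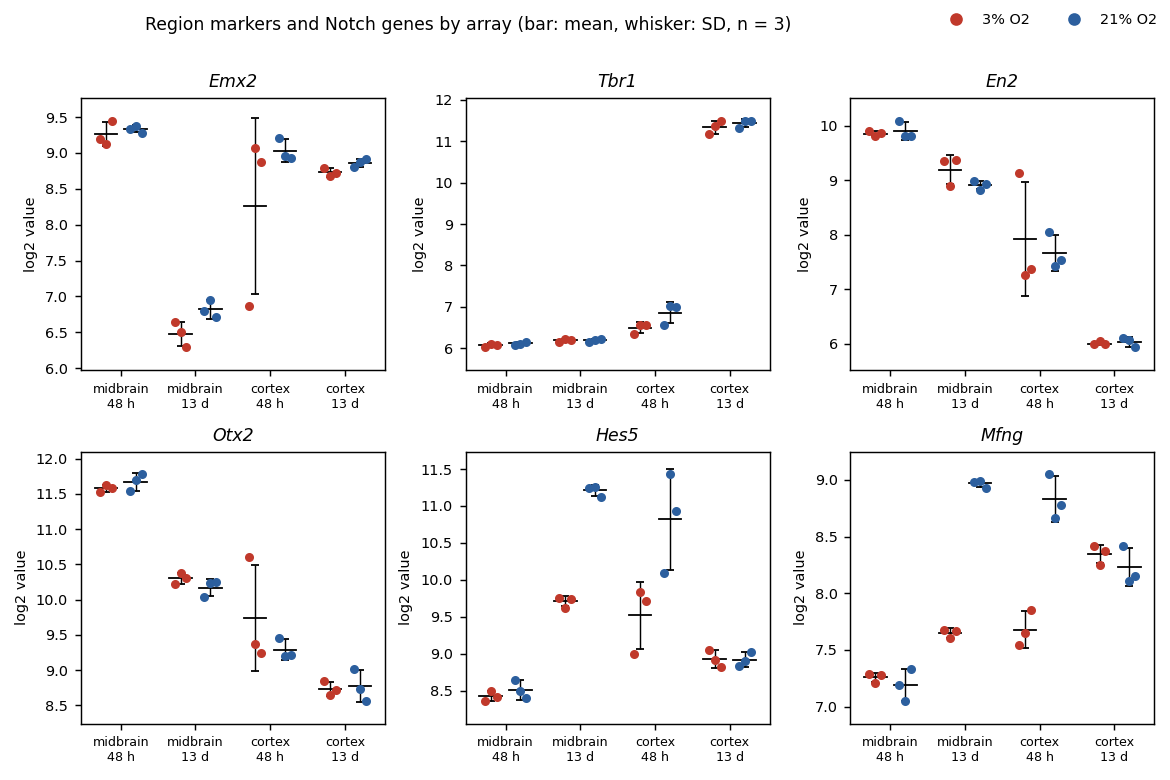
Log2 values by array (vertical axis) of the region markers Emx2, Tbr1, En2 and Otx2 and of the Notch pathway genes Hes5 and Mfng, by region and labelled time, with mean and SD (n = 3). In cortex labelled 48 h, replicate 1 at 3% O2 lies apart from replicates 2 and 3 for Emx2 (6.86), En2 (9.13) and Otx2 (10.61).

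The promoters of the 3 members whose oxygen responses passed the test are shown, as the DNA next to the genes that the report turns on. Each line gives the 250 bases before a transcription start in the RefSeq annotation of mouse assembly GRCm38.p6, 5′ to 3′ on the gene's strand, with E-boxes (CANNTG, which reads the same on both strands) in capitals. The deposited files name no build. The windows are chr3:127632886-127633135 on the plus strand for Neurog2, chr2:79456637-79456886 on the minus strand for Neurod1, and chr2:181763082-181763331 on the plus strand for the start numbered 1 of 3 for Myt1.
Neurog2: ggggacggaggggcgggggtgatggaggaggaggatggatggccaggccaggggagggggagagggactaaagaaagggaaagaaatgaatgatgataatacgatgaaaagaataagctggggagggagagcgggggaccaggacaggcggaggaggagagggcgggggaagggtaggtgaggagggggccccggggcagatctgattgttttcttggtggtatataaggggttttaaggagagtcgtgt
Neurod1: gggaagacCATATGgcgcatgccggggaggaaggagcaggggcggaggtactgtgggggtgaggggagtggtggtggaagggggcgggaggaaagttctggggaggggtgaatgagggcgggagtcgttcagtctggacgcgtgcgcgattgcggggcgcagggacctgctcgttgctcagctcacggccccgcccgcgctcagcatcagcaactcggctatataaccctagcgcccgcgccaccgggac
Myt1: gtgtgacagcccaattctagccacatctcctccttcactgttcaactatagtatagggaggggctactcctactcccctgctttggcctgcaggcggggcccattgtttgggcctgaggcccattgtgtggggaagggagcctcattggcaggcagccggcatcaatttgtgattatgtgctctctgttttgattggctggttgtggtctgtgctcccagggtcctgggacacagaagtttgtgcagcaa
The Neurod1 window held 1 E-box, CATATG, 242 bases before the start, and the Neurog2 window and this Myt1 window held 0. The Myt1 window of the start numbered 2 held CATTTG at 2 places, and that of the start numbered 3 held CATGTG. RefSeq held 15 such windows for 8 of the 9 members, of which 8 held an E-box, beside 66.2% of all 32851 windows. Hes6 held the motif 3 times in the window of its start numbered 1. The form CAGATG or its reverse complement CATCTG, favoured by neurogenins and NeuroD factors and counted among the E-boxes too, stood in 3 of the 15 windows, all of Elavl4, and in 14.4% of all windows. A pair of those windows overlap and share the motif, so these are 2 distinct sites. The hypoxia response core ACGTG (or CACGT) was found in 1 window, of Elavl4, beside 16.6% of all. The RBPJ site TGGGAA (or TTCCCA), read by the Notch effector, was found in 1 window, of Myt1, beside 21.6% of all. These matches describe the letters in the windows only.

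Across the 8 groups the members ranged from nearly flat to strongly varying. Group means spanned 3.74 on the log2 scale for Elavl4, 3.35 for Neurod1, 2.08 for Myt1, 1.13 for Insm1, 0.87 for Hes6, 0.66 for Neurog2 and 0.36 for Neurog1. They spanned 0.18 for Neurod4 and 0.14 for Atoh1. These spans include the midbrain 13 d arrays of the other array run. Of the bHLH members Neurod1 had the widest span, while its relative Neurod4 was nearly flat. Signal over background is unknown, so whether the transcripts of Neurod4, Atoh1 and Neurog1 were detected at all was not tested.

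**Figure D2:**
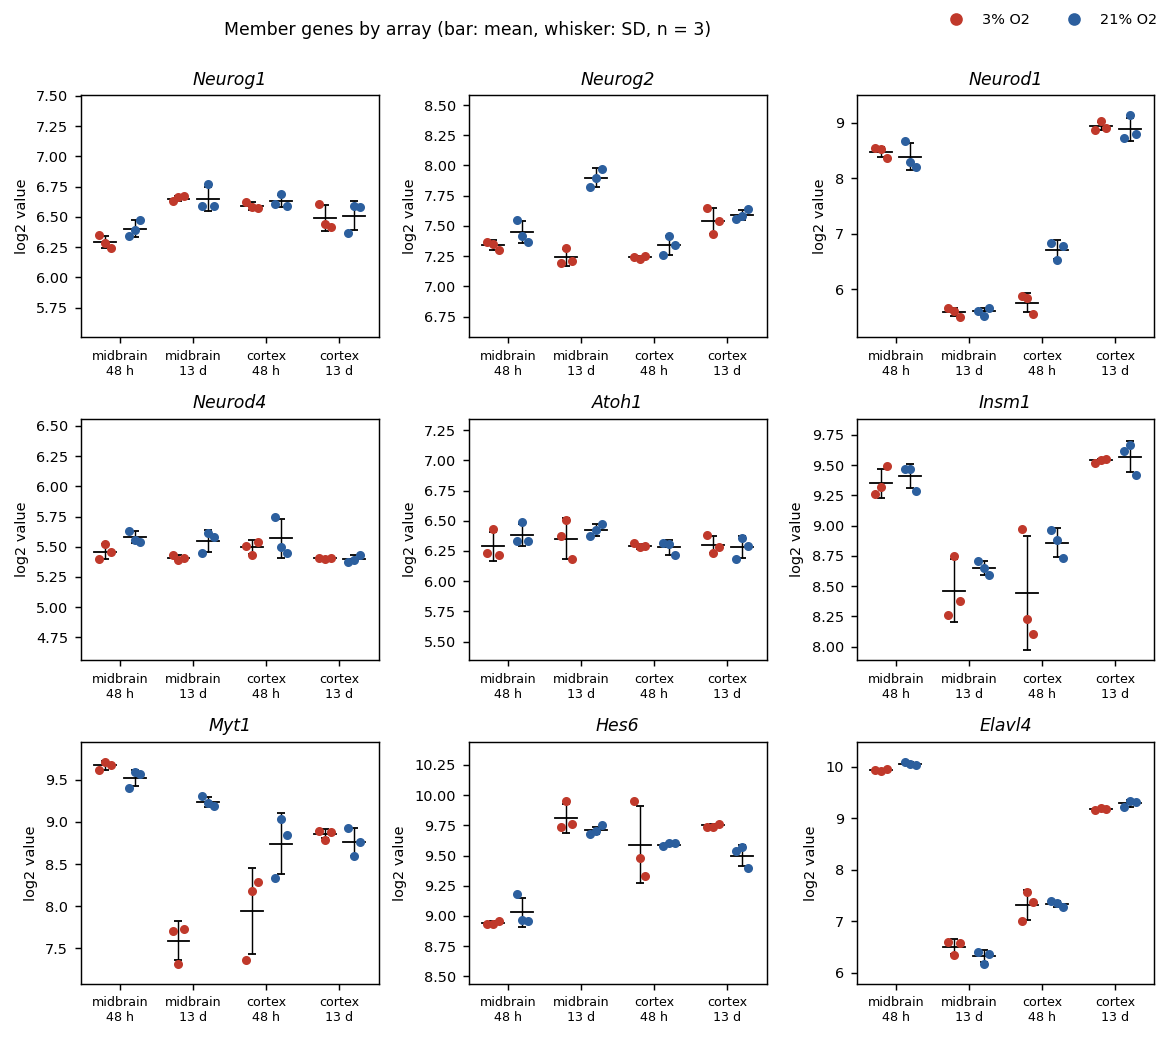
Log2 value of each member (vertical axis) in every array, by region and labelled time (horizontal axis) and oxygen level (colour), with the group mean as a bar and the SD as a whisker (n = 3). Panels have their own vertical ranges. Neurod1 and Elavl4 are high in midbrain 48 h and cortex labelled 13 d, Neurog2 and Myt1 separate by oxygen in midbrain 13 d, and Neurod1 and Myt1 separate by oxygen in cortex labelled 48 h.

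Among the factors that start the cascade, Neurog2 had its highest mean in midbrain 13 d at 21% O2, with 7.82, 7.90 and 7.97 in replicates 1, 2 and 3. The group next below, cortex labelled 13 d at 21% O2, had 7.56, 7.58 and 7.64. These values do not overlap, but they cross the array run. At the low end, midbrain 13 d at 3% O2 (7.19, 7.32 and 7.21) and cortex labelled 48 h at 3% O2 (7.24, 7.23 and 7.25) overlapped. Neurog1, its close relative, ran from a mean of 6.65 in both midbrain 13 d groups to 6.29 in midbrain 48 h at 3% O2, and each group overlapped its neighbour in that order. Atoh1, the proneural factor of cerebellar granule cell precursors and inner ear hair cells, lay between 6.18 and 6.51 in all 24 arrays, with every neighbouring pair of groups overlapping.

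Neurod1, which acts downstream of neurogenins in newborn neurons, fell into high and low groups. Cortex labelled 13 d had 8.87, 9.03 and 8.91 at 3% O2 and 8.72, 9.13 and 8.80 at 21% O2. Midbrain 48 h followed, with 8.54, 8.52 and 8.37 at 3% O2 and 8.67, 8.29 and 8.21 at 21% O2. Of these 4 groups, only those that differ by oxygen alone overlapped as neighbours in the order. The others were lower: all 6 midbrain 13 d arrays lay between 5.50 and 5.67, and cortex labelled 48 h lay between 5.56 and 5.87 at 3% O2 and between 6.52 and 6.84 at 21% O2. Signal over background is unknown here, so differences from the lowest of these arrays may be understated, and no fold is given against them. The related Neurod4 lay between 5.37 and 5.75 in all arrays, and each group overlapped its neighbour.

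Insm1, a zinc finger factor of progenitors that leave the ventricular surface, was high in the same groups. Its values were 9.62, 9.67 and 9.42 in cortex labelled 13 d at 21% O2 and 9.47, 9.47 and 9.29 in midbrain 48 h at 21% O2. Its lowest mean was 8.44 ± 0.47 (SD, n = 3) in cortex labelled 48 h at 3% O2, where the array that stood apart read 8.97 and the others 8.23 and 8.10. Myt1, a zinc finger factor of neuronal and oligodendrocyte lineages, was arranged otherwise, since it stayed high in midbrain 13 d at 21% O2 (9.31, 9.22 and 9.19) where Neurod1 and Elavl4 were among their lowest. Myt1 in midbrain 48 h was 9.62, 9.71 and 9.68 at 3% O2 and 9.40, 9.59 and 9.57 at 21% O2.

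Hes6, a bHLH-family protein that opposes Hes1 and favours differentiation, ran against Elavl4 and Myt1. It was lowest in midbrain 48 h, with means of 8.94 ± 0.02 and 9.03 ± 0.12 (SD, n = 3) at 3% and 21% O2, and no array of either overlapped one of the other 6 groups. Its highest mean was 9.81 ± 0.12 in midbrain 13 d at 3% O2, where the arrays overlapped those of cortex labelled 13 d at 3% O2. Elavl4 (HuD), an RNA-binding protein of postmitotic neurons, was highest in midbrain 48 h, at 10.09, 10.05 and 10.04 at 21% O2 and 9.94, 9.92 and 9.96 at 3% O2. It read 9.21, 9.34 and 9.32 in cortex labelled 13 d at 21% O2, 7.39, 7.35 and 7.28 in cortex labelled 48 h at 21% O2, and 6.41, 6.18 and 6.36 in midbrain 13 d at 21% O2. No array of these 5 groups overlapped another of them.

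Over the 24 arrays, which share culture, region and run, the Pearson correlation of Neurod1 was 0.93 with Insm1 and 0.93 with Elavl4, and that of Insm1 with Elavl4 was 0.82. Hes6 had a correlation of -0.73 with Elavl4 and -0.71 with Myt1. Neurog1, with its narrow span, stood at -0.81 with Elavl4, -0.69 with Neurod1 and 0.73 with Hes6. Myt1 stood at 0.54 with Neurod1 and 0.51 with Insm1, and Neurog2 at 0.10 with Neurod1. The genes whose values were most like a member's, by the same measure over all 24 arrays, differed between members. Elavl4 was most like Snap25, a synaptic vesicle fusion protein gene (0.996), Zdbf2 (0.995) and Tspan13 (0.993). Neurod1 was most like Lsm14b (0.984), Islr2 (0.983) and Shtn1 (0.982), the last a gene of neuronal polarity. For Myt1 they were Kit, a receptor tyrosine kinase (0.963), Wasf1 (0.952) and Chfr (0.950), and for Insm1 Ankrd10 (0.939), Sema3c (0.935) and Scrn1 (0.934). Hes6 was most like Rps6ka5 (0.947), Gas1 (0.941) and Keap1 (0.936). For Neurog1 they were Pcsk4 (0.909), Ntf5 (0.900) and Oxld1 (0.899), and for Neurog2 Armc2 (0.859), Ccndbp1 (0.850) and Uros (0.848). The nearly flat members had weaker matches: Atoh1 with Sigirr (0.804), Mir296 (0.801) and Cldn19 (0.784), and Neurod4 with Olfr1077-ps1 (0.739), Olfr1094 (0.731) and Napa (0.714).

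Neurog2 and Myt1 were lower at 3% O2 in midbrain cultures at 13 d. Neurog2 read 7.19, 7.32 and 7.21 at 3% O2 and 7.82, 7.90 and 7.97 at 21% O2, and the groups did not overlap. It fell by 0.66 ± 0.06 (95% interval -0.78 to -0.53, adjusted p = 1.3e-07), a 1.58-fold lower level. Myt1 read 7.71, 7.32 and 7.73 at 3% O2 and 9.31, 9.22 and 9.19 at 21% O2, again without overlap. It fell by 1.65 ± 0.19 (95% interval -2.04 to -1.25, adjusted p = 2.2e-06), a 3.13-fold lower level. These were 2 of 9 members, where 23.9% of all probe sets passed in either direction and 12.7% were lower, so the share is near the background. The median change of the 9 members was -0.07, beside -0.01 over all probe sets.

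The other 7 members did not pass in midbrain 13 d. Their changes ran from -0.18 ± 0.16 for Insm1 (95% interval -0.51 to 0.14) to 0.19 ± 0.10 for Elavl4 (-0.01 to 0.40). Neurod1, at 5.59 and 5.60 in the mean, differed by -0.01 with an interval of -0.26 to 0.24. Those are its lowest group means, and signal over background is unknown, so a fall there may go unseen. Neurog1 differed by 0.00 (-0.13 to 0.14).

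Markers of other cells moved in the same cultures. The mean of 7 oligodendrocyte lineage genes was 10.13 ± 0.22 (SD, n = 3) at 3% O2, with arrays from 9.88 to 10.27, and 10.58 ± 0.04 at 21% O2, with arrays from 10.53 to 10.60. Of these genes 1 was higher and 1 lower: Cspg4 read 10.14 at 3% and 9.64 at 21% O2 in the mean, and Gpr17 8.73 and 10.91. Array by array, the 3% O2 replicate that was lowest for Myt1, replicate 2, was also lowest for Gpr17 (8.13 against 8.98 and 9.08) and Sox10 (8.62 against 9.25 and 9.30). Sox10, which was not among the 2 smallest p of its list, did not pass between the oxygen levels (adjusted p = 0.16). For Cspg4 that array was the highest of its group (10.19 against 10.10 and 10.13). It was also lowest for Snap25 (8.92 against 9.17 and 9.18) and En2 (8.89 against 9.34 and 9.36), and highest for Insm1 (8.75 against 8.26 and 8.38). Its low readings were thus not particular to oligodendrocyte genes. The dividing cell list was at 11.33 ± 0.08 and 10.97 ± 0.05, with 4 of 7 genes higher. The pericyte, fibroblast and meninges list was at 7.80 ± 0.14 and 7.17 ± 0.04, with 3 of 7 higher. Of all probe sets, 11.2% were higher. The mean of 12 neuron genes was 8.41 ± 0.09 at 3% O2 and 8.44 ± 0.07 at 21% O2. Of them Tubb3, Map2, Syn1 and Ina were lower at 3% O2, and Stmn2 and Nefl higher. The astrocyte list was at 9.77 ± 0.22 and 10.09 ± 0.12, and its gene with the smallest p, Gfap, did not pass (adjusted p = 0.15). The part of these cells in the Neurog2 and Myt1 differences was not tested.

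In the cortex cultures labelled 48 h, Neurod1 and Myt1 were lower at 3% O2. Neurod1 read 5.87, 5.84 and 5.56 at 3% O2 and 6.84, 6.52 and 6.78 at 21% O2, without overlap. It fell by 0.95 ± 0.12 (95% interval -1.20 to -0.71, adjusted p = 2.7e-05). Myt1 read 7.36, 8.18 and 8.29 at 3% O2 and 8.34, 9.04 and 8.85 at 21% O2. These Myt1 values barely separate, with 8.29 the highest at 3% and 8.34 the lowest at 21% O2. Myt1 fell by 0.80 ± 0.19 (95% interval -1.19 to -0.41, adjusted p = 0.0071), a 1.74-fold lower level. In this comparison 2 of 9 members were called, where 12.3% of all probe sets passed and 6.08% were lower, and the member median was -0.07 beside 0.00 over all.

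The arrays that stood apart carried weight here. Without replicate 1 at 3% O2 the change of Myt1 was -0.51, and it passed there and also without replicate 1 at 21% O2. Leaving out both gave -0.71 for Myt1 and -0.95 for Neurod1. In a fit of these 6 arrays alone Neurod1 passed and Myt1 did not (adjusted p = 0.24, against 6.9e-05 to 0.049 under the other alternatives). Insm1 had a change of -0.42 ± 0.16 (95% interval -0.75 to -0.09, adjusted p = 0.092) and did not pass. Its reading of 8.97 in replicate 1 at 3% O2 lay above the 8.96, 8.88 and 8.73 of the 21% O2 arrays, and without that array its change was -0.69 and passed. The other 6 members changed by -0.10 ± 0.06 (Neurog2) to 0.01 ± 0.07 (Atoh1), and Elavl4 by -0.03 with an interval of -0.23 to 0.18.

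Neuron markers were lower in these 3% O2 cortex arrays as well. The mean of 12 neuron genes was 8.99 ± 0.15 (SD, n = 3) with arrays from 8.82 to 9.09 at 3% O2, and 9.31 ± 0.05 with arrays from 9.25 to 9.35 at 21% O2. Of these genes 7 were lower and 1 higher, where 6.08% of all probe sets were lower and 6.25% higher. The oligodendrocyte list was at 10.60 ± 0.33 and 10.75 ± 0.60, and the 1 gene of it that passed, Cspg4, was higher at 3% O2 by 0.41 ± 0.10. Replicate 1 of each group had the lowest Myt1 and the lowest Sox10 (8.71 and 8.70), a gene that did not pass (adjusted p = 0.45). Without both of those arrays the oligodendrocyte means were 10.79 and 11.09 (n = 2 each), with 3 of 7 genes lower, Sox10 (-0.75) and Gpr17 (-0.99) among them, and Cspg4 still higher at 0.40. The neuron means were then 9.08 and 9.33, with 8 genes lower and 3 higher. The shares of all probe sets without those arrays are not given here, so these counts of genes have no background beside them. The part of these cells in the member differences was not tested.

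Oxygen left no call among the members in the other cultures. In midbrain 48 h limma called 0 of 9 at an adjusted p under 0.05 and 0 at an unadjusted p under 0.05, beside 1.19% of all probe sets called. Changes there ran from -0.12 ± 0.06 (Neurod4) and -0.12 ± 0.10 (Elavl4) to 0.15 ± 0.19 (Myt1), with the widest interval -0.24 to 0.54 for Myt1. Neurod1 changed by 0.08 with an interval of -0.16 to 0.33. In cortex labelled 13 d limma called 0 of 9, and 1 had an unadjusted p under 0.05, beside 0.607% called overall. That gene was Hes6, at 9.74, 9.74 and 9.76 at 3% O2 and 9.54, 9.57 and 9.40 at 21% O2. Its values did not overlap, and its change of 0.24 ± 0.10 had an adjusted p of 0.58. Neurod1 changed by 0.06 (95% interval -0.19 to 0.30) and Myt1 by 0.10 (-0.30 to 0.49).

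**Figure D3:**
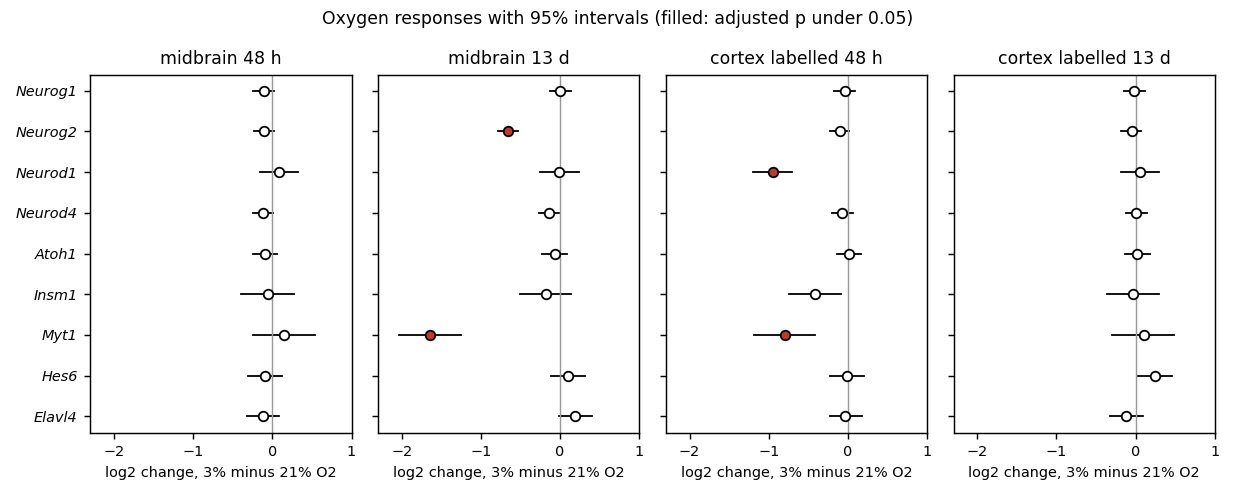
Change with low oxygen of each member (log2 value at 3% O2 minus that at 21% O2, horizontal axis) in the 4 culture sets, with 95% intervals from limma over 24 arrays. Filled points had an adjusted p under 0.05: Neurog2 (-0.66) and Myt1 (-1.65) in midbrain 13 d, and Neurod1 (-0.95) and Myt1 (-0.80) in cortex labelled 48 h.

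The differences between these oxygen responses were tested as interactions. Between the times in midbrain, 2 of 9 members differed, beside 15.1% of all probe sets: the response at 13 d minus that at 48 h was -0.55 ± 0.08 for Neurog2 (adjusted p = 1.7e-04) and -1.80 ± 0.27 for Myt1 (adjusted p = 1.2e-04). Between the regions at 13 d, 2 of 9 differed, beside 13.5%: midbrain minus cortex was -0.61 ± 0.08 for Neurog2 (adjusted p = 7.5e-05) and -1.74 ± 0.27 for Myt1 (adjusted p = 1.8e-04). In both contrasts the sets compared lie in different array runs, so a run effect that itself depended on oxygen cannot be told apart.

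Within array run 2, the Neurod1 response of cortex labelled 48 h differed from both other sets. Cortex 13 d minus 48 h was 1.01 ± 0.17 (adjusted p = 0.0022), the 1 member called of 9, beside 4.13% of all probe sets. Midbrain minus cortex at 48 h was 1.04 ± 0.17 (adjusted p = 0.0012). That contrast also called Myt1, at 0.95 ± 0.27 (adjusted p = 0.039), so 2 of 9 beside 5.88%. The Myt1 call was lost in 9 of 12 fits that left out 1 array, and was kept only without cortex replicate 2 or 3 at 3% O2 or cortex replicate 1 at 21% O2. Without cortex replicate 1 at 3% O2 the Myt1 difference was 0.66. Between the cortex times the Myt1 difference of 0.90 ± 0.27 had an adjusted p of 0.064. Without both arrays that stood apart, Myt1 (0.81), Insm1 (0.61) and Hes6 (0.44) passed there too, and Insm1 (0.58) passed between the regions at 48 h.

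Differences between regions and labelled times were called in 5 or 6 of the members. At 21% O2 and 48 h, 6 of 9 members passed between midbrain and cortex, beside 54.8% of all probe sets. Elavl4 was higher in midbrain by 2.72 ± 0.10 (6.6-fold), Neurod1 by 1.68 ± 0.12 (3.2-fold), Myt1 by 0.78 ± 0.19 and Insm1 by 0.55 ± 0.16. Hes6 was lower in midbrain, with a difference of -0.56 ± 0.10, and so was Neurog1, at -0.23 ± 0.06. At 3% O2 the same 6 genes passed in the same directions, beside 61.2%, with Neurod1 at 2.72 ± 0.12 and Myt1 at 1.73 ± 0.19. Neurog2, Neurod4 and Atoh1 did not pass at either oxygen level, and differed by 0.11 ± 0.06, 0.01 ± 0.06 and 0.10 ± 0.07 at 21% O2.

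Cortex labelled 13 d was set against cortex labelled 48 h in the same way. At 21% O2, 5 of 9 members passed, beside 37.2%: Neurod1 was higher by 2.17 ± 0.12 (4.5-fold), Elavl4 by 1.95 ± 0.10, Insm1 by 0.71 ± 0.16 and Neurog2 by 0.25 ± 0.06. Neurod4 differed by -0.17 ± 0.06 (adjusted p = 0.036), a call lost without cortex 48 h replicate 1 or cortex 13 d replicate 1 or 2 at 21% O2. At 3% O2, 5 of 9 passed, beside 42.2%, all higher in the arrays labelled 13 d (17.5% of all probe sets were higher), with Neurod1 at 3.18 ± 0.12 and Myt1 at 0.91 ± 0.19 now among them. Myt1 did not pass at 21% O2, where it differed by 0.02 ± 0.19. Without cortex 48 h replicate 1 at 3% O2, Hes6 passed too, at 0.34.

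The groups rich in neuron genes, midbrain 48 h and cortex labelled 13 d, differed from each other as well. At 21% O2, 5 of 9 members passed, beside 41.4% of all probe sets. Midbrain was higher for Elavl4 by 0.77 ± 0.10 and for Myt1 by 0.76 ± 0.19, and lower for Neurod1, at -0.49 ± 0.12, and Hes6, at -0.47 ± 0.10. Neurod4 differed by 0.18 ± 0.06, a call lost without midbrain replicate 1 or cortex replicate 1 or 2. Insm1 differed by -0.16 ± 0.16 and did not pass. Against background shares of 37.2% to 61.2%, counts of 5 and 6 of 9 in the comparisons of regions and times say little about the members as a set.

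The wider cascade was read from 25 measured genes that act with or after the members. This list, and that of partners and repressors below, were chosen with earlier results of these data known. Their counts beside the shares of all probe sets are therefore a description, not a test. In midbrain 13 d, 9 were lower at 3% O2 and 1 was higher, where 12.7% of all probe sets were lower and 11.2% higher. Their median was -0.05, beside -0.01 over all. Mfng, which modifies Notch receptors, read 7.68, 7.61 and 7.67 at 3% O2 and 8.98, 8.99 and 8.93 at 21% O2, a fall of 1.32 ± 0.10. Gadd45g, a growth arrest gene known as a target of proneural factors, fell by 1.11 ± 0.08. The other 7 lower genes were Dll3, Dll1, Rnd2, Btg2, Elavl2, Sox4 and Srrm4, and the higher gene was Myt1l, a relative of Myt1, at 0.41 ± 0.10.

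In cortex labelled 48 h, 10 of the 25 genes were lower and 1 was higher, where 6.08% and 6.25% of all probe sets were, and the median was -0.38 beside 0.00. Without replicate 1 at 3% O2 8 were lower, and without replicate 1 at 21% O2, or without both, 15 were. Btg2, which slows the cell cycle in neurogenic progenitors, read 9.05, 9.14 and 9.06 at 3% O2 and 10.14, 10.30 and 10.26 at 21% O2, a fall of 1.15 ± 0.10, and Mfng fell by 1.15 ± 0.10. Without both arrays their changes were -1.18 and -0.97. The others lower were Dll1, Elavl3, Srrm4, Sox4, Nhlh1, Elavl2, Gadd45g and St18, and Ebf1 was higher by 1.15 ± 0.21. Limma called 0 of 25 in midbrain 48 h, beside 1.19% of all probe sets, and likewise 0 in cortex labelled 13 d, beside 0.607%. In these sets 3 and 1 had an unadjusted p under 0.05. With shares that low, counts of 0 say little about the list.

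Among 12 bHLH partners and repressors, those that hold the cascade back did not move one way. In midbrain 13 d 4 were higher and 5 lower, where 11.2% of all probe sets were higher and 12.7% lower. The Notch effector Hes5 read 9.75, 9.62 and 9.74 at 3% O2 and 11.24, 11.26 and 11.12 at 21% O2, a fall of 1.50 ± 0.23, and Hey2, Id3 and Id4 were lower too. Hes1, also a Notch effector, was higher by 0.96 ± 0.20, as were Id1 (1.06 ± 0.21), Id2 and Rest, a repressor of neuronal genes. Of the E proteins, which pair with the bHLH members, Tcf12 fell by 0.30 ± 0.06, while Tcf3 (0.10 ± 0.08) and Tcf4 (-0.06 ± 0.05) did not pass. In cortex labelled 48 h, where 6.08% of all probe sets were lower and 6.25% higher, Hey2 fell by 1.65 ± 0.28. Hes5 fell by 1.30 ± 0.23 and Id4 by 1.44 ± 0.29, while Hes1 was higher by 0.93 ± 0.20. Without both arrays that stood apart these 4 genes still passed, with changes of -2.09 for Hey2, -1.40 for Hes5, -1.97 for Id4 and 1.21 for Hes1. Limma called 0 of 12 in midbrain 48 h, beside 1.19% of all probe sets, and likewise 0 in cortex labelled 13 d, beside 0.607%. There 1 and 2 had an unadjusted p under 0.05. The rule allowed 2 genes per list and comparison to be named, and the further names above complete the counts and were chosen after their values were seen.

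**Figure D4:**
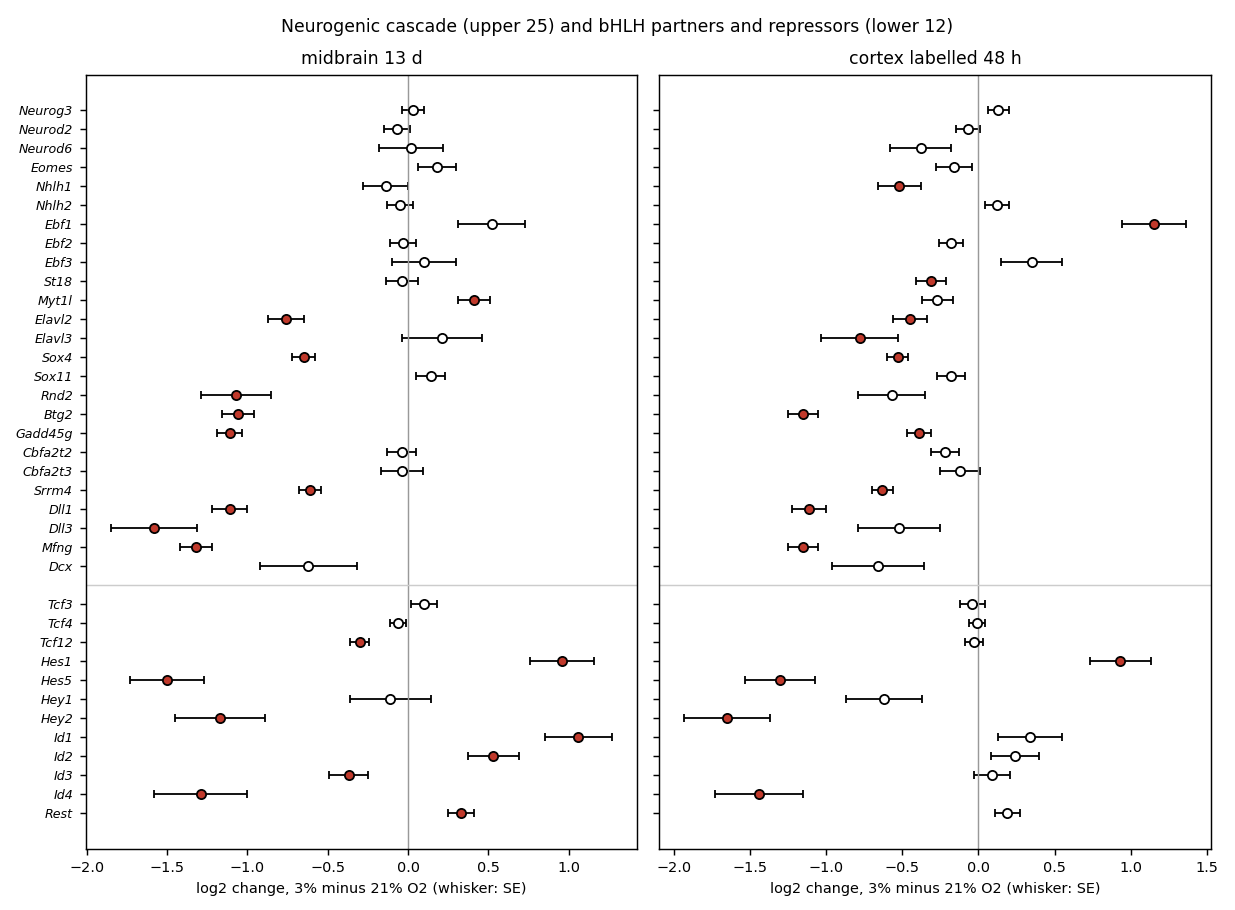
Change with low oxygen (log2 value at 3% minus 21% O2, horizontal axis, whiskers SE) of 25 neurogenic cascade genes and 12 bHLH partners and repressors in midbrain at 13 d (left) and cortex labelled 48 h (right). Filled points had an adjusted p under 0.05. Mfng (-1.32 and -1.15) and Hes5 (-1.50 and -1.30) are lower in both sets, and Hes1 (0.96 and 0.93) is higher in both.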

How the data were processed

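Each sample's total RNA was made into biotin-labelled cDNA and read on 1 mouse whole-transcript array, per the labels. The authors deposited 1 table of log2 values, called normalized in the labels, with 28856 probe sets for 24 arrays. How they were normalized is not stated in the sources at hand, and the log2 scale was read from the values, which span 4.65 to 14.49. Arrays give no read depth, and their number limits the precision.

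Probe sets with a symbol (23410) were tested with limma 3.58.1 in R 4.3.3 (lmFit on 8 group means, 16 residual degrees of freedom, eBayes), in 13 comparisons, two-sided, with Benjamini-Hochberg adjustment and a threshold of 0.05. Members and gene lists were chosen with earlier results of these data known. Lists take the brightest probe set per gene. By rule, the genes named besides the members were the 2 smallest p per list and comparison, and the 3 genes most correlated with each member. Further genes outside that rule, Sox10 and those that complete counts among them, were named after their values were seen. In midbrain, the 3% and 21% O2 arrays that bear the same replicate number shared deviations from their group means (correlations 0.121, 0.217 and 0.243 at 48 h, and 0.123, 0.421 and 0.306 at 13 d). All were above the limit of 0.1. At 13 d some arrays of different numbers passed it too: 3% O2 replicate 1 with 21% O2 replicate 3 (0.164), and 3% O2 replicate 3 with 21% O2 replicate 1 (0.167). The limit alone therefore does not separate pairs at 13 d, and any pairing comes from the data, not from the labels. No replicate pair was a duplicate (smallest SD of differences 0.0927). In a test on simulated data for midbrain 13 d, 92% of changes of 0.5, 100% of changes of 1 and 96% of changes of -1 were recovered, with 8 false calls among 23410 probe sets. There 200 probe sets were changed, while 23.9% of probe sets passed in the data. The recovery therefore need not hold for the data, nor for members whose signal over background is unknown. Alternatives were array weights, a variance trend, median centring, quantile normalization, only the brighter probe sets, all probe sets, the compared arrays only, a replicate block and leaving out each array, and, added after seeing the data, leaving out both cortex 48 h arrays numbered 1. Protein sequences were not used here.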

Additional observations from a re-analysis of the deposited data

Results flagged for a closer look

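The oxygen response of 3 members differed between culture sets by limma's test of the difference (3% minus 21% O2 in the first set, less the same in the second, n = 3 arrays per group). Neurog2 differed by -0.55 between midbrain at 13 d and at 48 h, and by -0.61 between midbrain and cortex at 13 d. Neurog2 was lower at 3% O2 in each of the 3 midbrain 13 d arrays than in any 21% O2 array there, and its values overlapped in cortex labelled 13 d. Myt1 differed by -1.80 between the midbrain times and by -1.74 between the regions at 13 d. At 48 h the Myt1 responses of midbrain and cortex differed by 0.95, a call that was lost in 9 of the 12 fits that left out 1 array. Neurod1 differed by 1.01 between the labelled cortex times and by 1.04 between midbrain and cortex at 48 h. Each contrast that involves cortex takes its times as labelled, which was not tested.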

How the results depend on the processing

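No called value changed sign under any alternative run, and quantile normalization and median centring moved the median of all probe sets by under 0.1. Among brighter probe sets only (means over 24 arrays above 7.79), 4 of the 9 members remain (Insm1, Myt1, Hes6 and Elavl4), since the others are not tested there. Calls were then 1 for oxygen in midbrain 13 d, 1 in cortex 48 h, 1 each for the differences between midbrain times, regions at 48 h and regions at 13 d, 2 and 3 between cortex times at 21% and 3% O2, and 3 between midbrain 48 h and cortex 13 d. Array weights gave 5 calls for oxygen in midbrain 13 d, adding Neurod4 (-0.12), Insm1 (-0.32) and Elavl4 (0.24), and 4 for the difference between cortex times. For none of the alternatives is the share of all probe sets called given here. A higher count of members under an alternative therefore cannot be read as more members responding. With the compared arrays only, oxygen in cortex 48 h and the difference between regions at 48 h kept 1 call each, the cause of which was not tested. The replicate block changed no midbrain oxygen call and gave 2 calls for the difference between cortex times (0.90 for Myt1). In cortex the arrays of the same number did not pair throughout. Their correlations were 0.285, 0.417 and -0.044 at 48 h, and -0.014, 0.229 and -0.367 at 13 d. Leaving out both cortex 48 h arrays numbered 1 gave 4 calls for the difference between cortex times. Leaving out each array gave 1 to 3 calls for the difference between cortex times, 1 to 2 for that between regions at 48 h, 2 to 3 for oxygen in cortex 48 h, 4 to 5 for midbrain 48 h against cortex 13 d, and 4 to 5 and 5 to 6 for the cortex times at 21% and 3% O2. In the same fits Neurog2 in midbrain 13 d ran from -0.70 to -0.62, Myt1 there from -1.72 to -1.51, and Neurod1 in cortex 48 h from -1.05 to -0.86. Limits are 3 arrays per group, an unstated normalization, unknown signal over background and array run 1 for midbrain 13 d.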

Other observations

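The neuron-rich groups, midbrain 48 h and cortex labelled 13 d, carried different companions of the members. At 21% O2 Neurod2, a bHLH gene of cortical projection neurons, read 8.81, 8.85 and 8.76 in midbrain 48 h and 10.38, 10.64 and 10.60 in cortex labelled 13 d, a difference of -1.73 ± 0.08 (limma, adjusted p = 1.1e-12). Its relative Neurod6, chosen after its values were seen, had means of 6.81 and 10.49. Ebf2, an early neuronal transcription factor gene, was higher in midbrain by 3.90 ± 0.08. Lhx9 and Barhl1, homeobox genes of the dorsal midbrain and rhombic lip, were higher by 3.64 ± 0.08 and 2.66 ± 0.12, while Atoh1, which precedes them in the rhombic lip, differed by 0.11 ± 0.07 and did not pass.

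Hormone granule genes, which Insm1 accompanies in endocrine cells, were read as well. Pcsk1, a prohormone convertase, was higher in midbrain 48 h than in cortex labelled 13 d by 2.36 ± 0.17, and Chgb, a granin, by 1.32 ± 0.11. Insm1 differed by -0.16 ± 0.16 between the same groups.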
